A study of Mus musculus with 9 samples.

Results

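Adrenomedullin (Adm), its receptor Calcrl and the receptor partners Ramp1, Ramp2 and Ramp3 were measured in cultured mouse lung cells that the labels call type II cells, the surfactant-making epithelial cells of the alveolus. The members were taken by name: every probe set (a group of short probes read as 1 value) with a single annotated symbol that was 1 of these 5 genes. This gave 10 probe sets of the 45037 analysed, for 5 of 18193 genes with such a probe set. The genes were chosen by earlier results of the same 9 arrays, the Adm signals of the 3 groups among them, so their values are given as a description with no test.

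The arrays formed 3 groups of 3, all from ICR10 mice labelled female and aged 2 months. The first held Nrf2-/- cells supplemented with GSH (the usual abbreviation of glutathione, a thiol antioxidant), the second Nrf2-/- cells, and the third Nrf2+/+ cells, called KO with GSH, KO and WT here. All cells were grown for 5 days with keratinocyte growth factor, and both KO groups lack Nrf2, a transcriptional activator of antioxidant genes. The labels give each array n = 1 and leave unsaid whether a group's arrays stand for different animals or cultures, so the spread between them may be technical. No source used here states the dose or time of GSH. The treatment field reads no treatment for all arrays, including those labelled as supplemented with GSH. A number in the titles, called the set, put 2 arrays of each group in set 2 and 1 in set 3.

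Adrenomedullin is a secreted peptide that widens blood vessels, tightens endothelial barriers and is induced by low oxygen. Its receptor is made of 2 proteins: Calcrl, which crosses the membrane like other G protein-coupled receptors, and a RAMP, a small partner that carries Calcrl to the cell surface and sets which peptide it prefers. With Ramp2 or Ramp3 the pair responds best to adrenomedullin, and with Ramp1 to the related peptide CGRP. Binding raises cyclic AMP inside the cell. In the lung this system is known best from blood vessels and lymphatics.

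Promoter sequences are shown for Adm, the member whose signal differed most between the groups, and for Calcrl, its receptor, whose order of groups was another. They are RefSeq sequences on GRCm38.p6 from 250 bases before to 50 after each gene's start. Adm lies at chr7:110627407-110627706 on the plus strand and Calcrl at chr2:84425217-84425516 on the minus strand. Capitals mark GCGTG on either strand, a core of the hypoxia response element, and TGACNNNGC on either strand, the core of the antioxidant response element that Nrf2 binds.
Adm: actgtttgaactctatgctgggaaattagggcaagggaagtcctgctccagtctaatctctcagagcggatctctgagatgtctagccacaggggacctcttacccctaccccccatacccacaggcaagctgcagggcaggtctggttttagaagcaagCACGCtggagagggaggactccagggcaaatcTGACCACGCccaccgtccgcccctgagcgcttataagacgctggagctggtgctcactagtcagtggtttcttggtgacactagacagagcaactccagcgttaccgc
Calcrl: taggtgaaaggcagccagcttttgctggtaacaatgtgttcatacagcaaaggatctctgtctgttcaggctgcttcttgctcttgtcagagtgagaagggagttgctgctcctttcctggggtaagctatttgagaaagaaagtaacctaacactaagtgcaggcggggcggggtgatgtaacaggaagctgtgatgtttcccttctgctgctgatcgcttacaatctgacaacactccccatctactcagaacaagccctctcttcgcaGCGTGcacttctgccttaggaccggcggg

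The Adm window held GCGTG 2 times, on the minus strand at 90 and 54 bases before the start. It held TGACNNNGC once, as TGACCACGC from 58 bases before the start, and that match overlaps the nearer GCGTG. The Calcrl window held GCGTG once, 21 bases after the start, and no TGACNNNGC. GCGTG stood in 32.4% of 32851 RefSeq promoter windows of the same length and TGACNNNGC in 12.4%. The Ramp3 window held GCGTG 2 times and the Ramp1 window 0 times, and neither held TGACNNNGC. ACGTG, the other core of the hypoxia element (19.6% of windows), and TGACGTCA, the cyclic AMP response element (1.79%), had 0 matches in all 4 windows searched. Such matches are letters in a window and were not measured as sites. Promoters were matched for 4 of the 5 members, Ramp2 being the exception. Ramp1 lies on chromosome 1, and Ramp2 and Ramp3 on chromosome 11. Calcrl lies on chromosome 2, as does Nfe2l2, the gene of Nrf2. Whether this had a part in the Calcrl differences from WT was not tested.

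The labels were checked first. Nfe2l2, the gene of Nrf2, averaged 41.6 ± 7.20 in KO with GSH, 59.9 ± 27.1 in KO and 3980.4 ± 167 in WT (SD, n = 3 each). Its other probe set did not pass the signal filter and averaged 147.9 ± 36.1, 46.7 ± 19.0 and 42.2 ± 8.32 in the same groups. Sex-linked genes went against the labels in WT: Xist averaged 3510.0 ± 1112 in KO with GSH, 3203 ± 1248 in KO and 157 ± 28.2 in WT, and the Y-linked Eif2s3y averaged 7.43 ± 7.68, 9.27 ± 13.1 and 801 ± 121. Genotype and this difference cannot be told apart in either comparison with WT. Of 10 type II markers, 9 had a probe set, and Sftpc, the defining surfactant gene, averaged only 107.8 ± 30.3 in KO with GSH, 89.1 ± 48.7 in KO and 37.3 ± 10.3 in WT, below the level of control probe sets on all 3 WT arrays. That control level was the 95th percentile of 27 bacterial control probe sets, 43.4 to 82.9 by array. All signals are in arbitrary units. The 2% trimmed mean had a median of 500 over the arrays, and median signals were 101.6 to 142.6 by array.

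Adm, the ligand, was brightest in KO cells and dimmest in KO cells with GSH. Its first probe set, 1416077_at, read 878.1, 918.0 and 811.3 in KO with GSH, 5413.5, 6349.7 and 5881.2 in KO, and 1606.9, 1605.1 and 1512.8 in WT. No array of one group reached the values of another. The group means were 869 ± 53.9 in KO with GSH, 5881 ± 468 in KO and 1575 ± 53.8 in WT (SD, n = 3 each).

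In KO the Adm signal was 3.73-fold that of WT, a log2 difference of 1.90 (SE 0.07). Within set 2 the difference was 1.87 and within set 3 it was 1.96. Each KO array lay above each WT array. KO cells with GSH were 6.76-fold below KO cells, a log2 difference of -2.76, with -2.71 in set 2 and -2.86 in set 3. They were also 1.81-fold below WT (log2 -0.86), so the Adm signal with GSH lay under that of WT cells and not between the other groups. Both comparisons with KO use the same 3 KO arrays. In bulk samples of this kind, fewer cells of a type and less RNA per cell cannot be told apart.

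The second Adm probe set, 1447839_x_at, gave 820.8, 809.8 and 955.3 in KO with GSH, 5103.0, 4896.4 and 5454.0 in KO, and 1385.6, 1365.7 and 1682.1 in WT. The groups were in the same order and again did not overlap. Its log2 differences were 1.81 for KO against WT, -2.58 for KO with GSH against KO and -0.78 for KO with GSH against WT (SE 0.06 each).

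**Figure D1:**
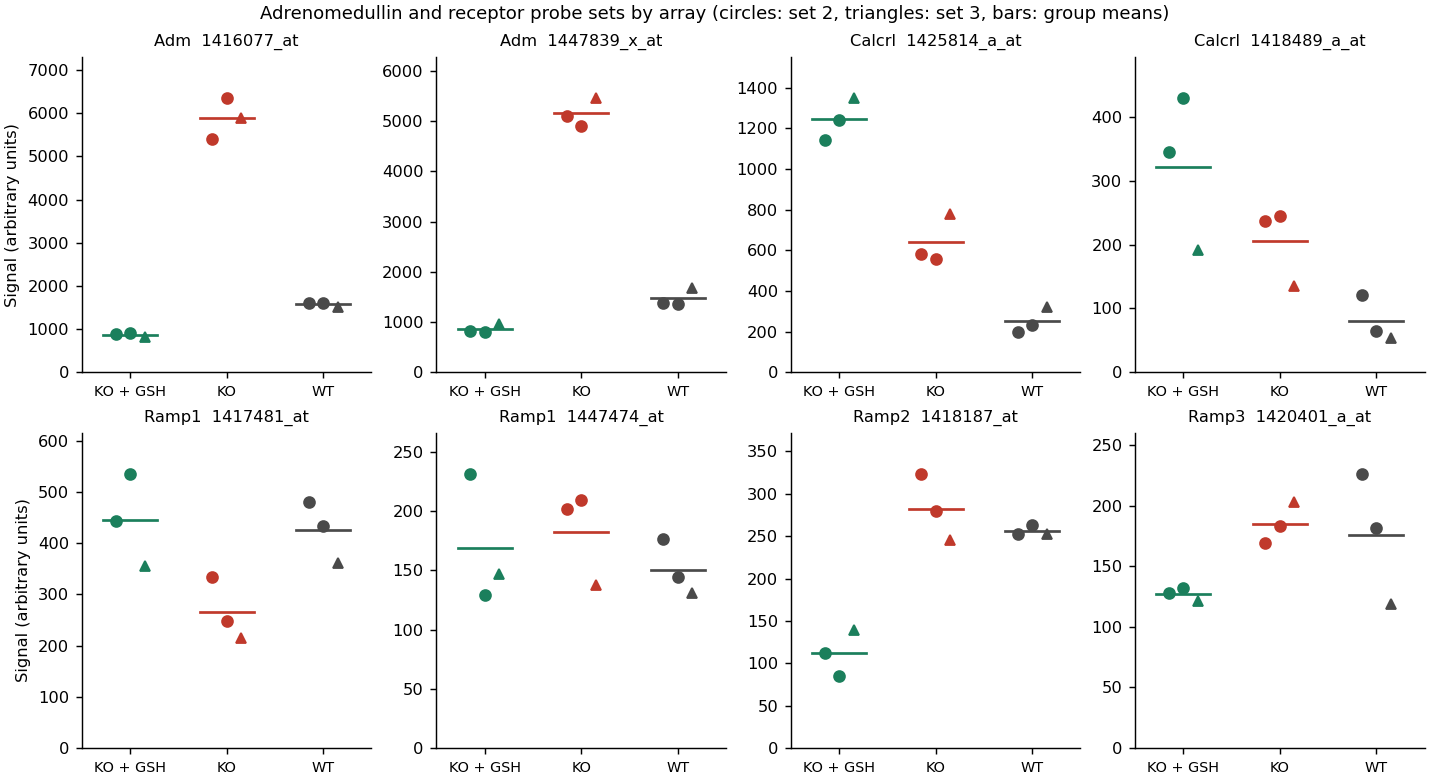
Signal in arbitrary units (vertical axis, from 0) of the 8 member probe sets that passed the signal filter, for 3 arrays each of KO with GSH, KO and WT. Circles are arrays of set 2, triangles arrays of set 3 and bars group means; both Adm probe sets are highest in KO, 1425814_a_at for Calcrl is highest in KO with GSH, and Ramp2 lies at 85.3 to 139.0 in KO with GSH.

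Calcrl, the receptor protein itself, followed another order: highest in KO cells with GSH, intermediate in KO and lowest in WT. Probe set 1425814_a_at read 1142.0, 1241.6 and 1347.9 in KO with GSH, 584.3, 559.1 and 776.6 in KO, and 197.0, 234.6 and 321.6 in WT. The 3 groups did not overlap, and in each the array of set 3 was the highest. The means were 1244 ± 103 in KO with GSH, 640.0 ± 119 in KO and 251 ± 63.9 in WT.

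For this probe set Calcrl was 2.57-fold higher in KO than in WT (log2 1.36, SE 0.11) and 5.05-fold higher in KO with GSH than in WT (log2 2.34). KO with GSH exceeded KO 1.96-fold, a log2 difference of 0.97, with 1.06 in set 2 and 0.80 in set 3. Adm and Calcrl thus lay on the same side of WT in KO cells and on opposite sides of it in KO cells with GSH.

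Another Calcrl probe set, 1418489_a_at, read 345.0, 429.1 and 191.8 in KO with GSH, 237.3, 244.0 and 135.0 in KO, and 120.5, 64.5 and 54.5 in WT. Here the set 3 array was the lowest of each group, and KO with GSH overlapped KO, with 7 of the 9 pairs of arrays higher with GSH. Against WT, both KO groups lay wholly higher, at log2 1.40 for KO and 2.02 for KO with GSH (SE 0.23 each). The third Calcrl probe set, 1459536_at, read 19.8 to 54.5 in KO with GSH, 5.8 to 43.2 in KO and 3.6 to 39.1 in WT. It was above the control level on 0 of 9 arrays and was left out by the filter, so no difference is given.

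Ramp1, the partner that turns Calcrl toward CGRP, was lower in KO cells than in both other groups by its brightest probe set. Probe set 1417481_at read 442.8, 535.4 and 354.9 in KO with GSH, 333.7, 248.8 and 215.0 in KO, and 480.4, 432.8 and 361.6 in WT. All KO arrays lay below all WT arrays and below all arrays with GSH, while KO with GSH and WT overlapped. The log2 differences were -0.69 for KO against WT, 0.75 for KO with GSH against KO and 0.05 for KO with GSH against WT (SE 0.14 each). In set 3 alone the difference of KO with GSH from WT was -0.03, against 0.09 in set 2.

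The other Ramp1 probe sets did not show this order. Probe set 1447474_at read 231.7, 128.9 and 147.0 in KO with GSH, 201.8, 209.3 and 137.4 in KO, and 176.6, 144.3 and 130.6 in WT. All groups overlapped, and its log2 differences were 0.27, -0.13 and 0.13 in the 3 comparisons (SE 0.23 each), the first and the second of opposite sign to those of 1417481_at. The third, 1431413_at, read 15.2, 31.0 and 63.6 in KO with GSH, 59.5, 72.4 and 51.6 in KO, and 99.2, 80.4 and 65.3 in WT. It was left out by the filter and stood above the control level on 1 of 3 arrays with GSH, against all 3 in KO and all 3 in WT. Its log2 difference between KO with GSH and KO was -0.96 (SE 0.51), also opposite to the brightest probe set. A direction for Ramp1 therefore depends on the probe set read.

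Ramp2, the partner of the main adrenomedullin receptor, was lower in KO cells with GSH than in the other groups. Its only single-symbol probe set, 1418187_at, read 112.0, 85.3 and 139.0 in KO with GSH, 323.6, 279.1 and 244.9 in KO, and 252.3, 262.9 and 252.5 in WT. Arrays with GSH lay below all others, and KO overlapped WT. KO with GSH was 2.55-fold below KO (log2 -1.35, SE 0.20), with -1.62 in set 2 and -0.82 in set 3, and 2.33-fold below WT (log2 -1.22). KO differed from WT by a log2 of 0.13, less than its SE of 0.20.

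A pair of further probe sets is annotated to both Ramp2 and Vps25, its coding neighbour on chromosome 11 and a subunit of the endosomal sorting machinery, and so belongs to neither by the rule. Probe set 1421051_s_at averaged 885 ± 147 in KO with GSH, 818 ± 74.5 in KO and 809 ± 67.1 in WT. Probe set 1428621_a_at averaged 1554 ± 131 in KO with GSH, 1442 ± 98.7 in KO and 1432 ± 48.3 in WT. Neither had a lower mean with GSH, unlike 1418187_at.

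Ramp3, the other adrenomedullin partner, was lower in KO cells with GSH than in KO cells and had no stable order between KO and WT. Probe set 1420401_a_at read 128.3, 132.0 and 121.5 in KO with GSH, 169.0, 183.1 and 203.2 in KO, and 226.5, 181.7 and 119.1 in WT. WT arrays spread across the values of both KO groups, and KO with GSH lay wholly below KO. The log2 difference was -0.54 for KO with GSH against KO (SE 0.22), -0.42 for KO with GSH against WT and 0.12 for KO against WT. The last was -0.21 in set 2 and 0.77 in set 3, and it turned to -0.15 without WT replicate 5 and to -0.09 without KO replicate 4. Without KO replicate 4 the difference of KO with GSH from KO was -0.32.

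**Figure D2:**
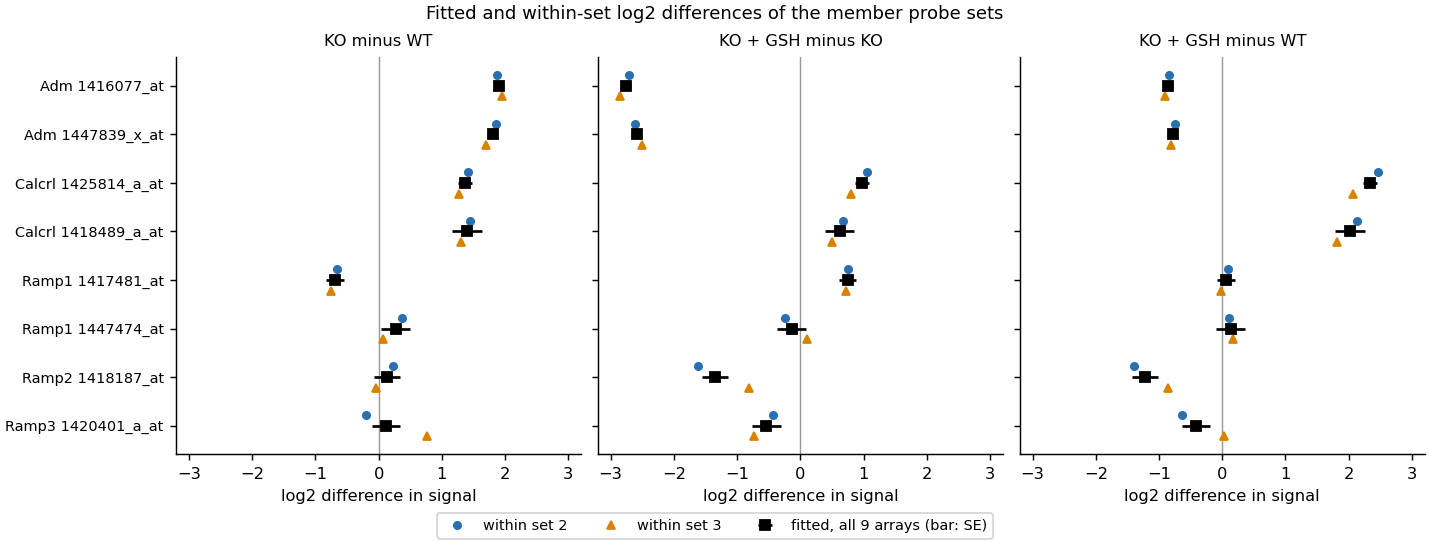
Log2 differences in signal (horizontal axes) for the 8 member probe sets that passed the filter, in 3 comparisons. Squares are differences fitted over all 9 arrays with bars of 1 SE, circles the difference within set 2 and triangles within set 3; Adm lies at 1.81 to 1.90 in KO against WT and at -2.76 to -2.58 in KO with GSH against KO, and the triangle and circle of Ramp3 lie on opposite sides of 0 in KO against WT.

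Of the 10 member probe sets, 8 passed the filter, with at least 1 for each of the 5 genes. In KO against WT, 5 of the 8 did not overlap between groups (4 higher, 1 lower), beside 30.2% of all 22519 probe sets that passed. In KO with GSH against KO it was 6 of 8 (2 higher, 4 lower), beside 33.6%. In KO with GSH against WT it was 5 of 8 (2 higher, 3 lower), beside 43.4%. These counts restate values by which the genes were selected, and nothing is read from them.

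Some genes had signals that followed the members closely over the 9 arrays. Likeness was Pearson's r over log2 signals, which mostly follows the 3 group levels since the arrays share groups and sets, and no function is read from it. For Adm the nearest were Prelp, a matrix proteoglycan (r 0.996), Cyp7b1, an oxysterol hydroxylase (0.994), and Asic3, an acid-sensing channel (0.990). Prelp averaged 363 ± 34.5 in KO with GSH, 3647 ± 83.2 in KO and 856 ± 50.3 in WT. Next came Rian, a noncoding RNA, and Ccl7, a chemokine, both at 0.985.

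For Calcrl the nearest were Dock10, a guanine nucleotide exchange factor, and Slfn4, a schlafen gene of myeloid cells (both 0.995). Rab32, Adcy7 and Ids followed at 0.994, 0.994 and 0.993. Slfn4 averaged 1003 ± 147 in KO with GSH, 527 ± 96.6 in KO and 153 ± 40.0 in WT, in the order of Calcrl. For Ramp2 they were Zc3hav1l (0.987), Wnt4, a secreted Wnt ligand (0.986), Meis1, a homeobox factor (0.984), Mxra7 (0.984) and Gzme, a granzyme (0.981). Ramp1 lay nearest to Cmtm8 (0.968), Rab11fip1 (0.962), Plaur, the urokinase receptor (0.952), Ung, a DNA glycosylase (0.952), and Cldn4, a tight junction claudin (0.944). Ramp3 had no gene as close, with Dusp19 at 0.911, Lsm2 at 0.909, Pitpnb at 0.908, Ccs at 0.905 and Gtpbp3 at 0.904.

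Markers of other cell types moved with the members, and their part in the differences was not tested. The 12 fibroblast and mesenchymal markers summed to 56499 to 65675 on arrays of KO with GSH, 111298 to 145509 in KO and 88587 to 96834 in WT, an order also seen for Adm. By limma, 9 of these 12 rose and 1 fell in KO against WT, and 10 fell in KO with GSH against KO, the other 2 not being called. Beside these and the marker counts below, 16.7% of all 11620 genes rose and 15.7% fell in KO against WT. In KO with GSH against KO the shares were 19.7% and 19.8%, and in KO with GSH against WT 23.5% and 24.5%. Dcn, a collagen-binding proteoglycan, averaged 1837 ± 51.3 in KO with GSH, 14165 ± 2251 in KO and 7345 ± 487 in WT. Summed macrophage markers ran in the order of Calcrl, but with overlap of KO with GSH and KO. They were 89350 to 108251 in KO with GSH, 71283 to 91634 in KO and 46258 to 49529 in WT. Of the 12, 10 rose and 2 fell in KO against WT, and 6 rose and 2 fell in KO with GSH against KO. The labels' protocol gives a step to remove macrophages and fibroblasts before culture. Summed markers of both nonetheless stood far above those of the 9 type II markers, 2967 to 4968 over all arrays. The lists hold different genes, so their sums compare only roughly.

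Endothelial cells are the best known site of Calcrl and Ramp2. The 12 endothelial markers summed to 3222 to 3929 in KO with GSH, 3582 to 4077 in KO and 5371 to 6367 in WT. Both KO groups lay below WT, and KO with GSH overlapped KO. Calcrl lay above WT in both KO groups, and Ramp2 was lowest in KO with GSH and overlapped between KO and WT. The part of endothelial cells in these signals was not tested. Of 10 endothelial markers tested, 4 fell in KO against WT with the other 6 not called. In KO with GSH against KO 1 rose and 2 fell, and in KO with GSH against WT 10 fell. Smooth muscle and pericyte markers summed to 28452 to 33266 in KO with GSH, 36207 to 48848 in KO and 36466 to 40282 in WT. Of 8 tested, 2 rose and 1 fell in KO against WT, and 5 fell in KO with GSH against KO, the other 3 not being called. Type II markers summed to 4369 to 4968 in KO with GSH, 3228 to 3544 in KO and 2967 to 3571 in WT. Of 6 type II markers tested, 1 rose and 1 fell in KO against WT, and 3 rose and 0 fell in KO with GSH against KO. Of 8 type I markers tested, 0 rose and 6 fell in KO against WT, and 3 rose and 0 fell in KO with GSH against KO. The summed signals of mesothelial and club markers were lowest in KO, as was Ramp1 by 1417481_at, although single markers differed. The 6 mesothelial markers summed to 14656 to 16988 in KO with GSH, 5337 to 5700 in KO and 18258 to 20759 in WT, and the 4 club markers to 2551 to 2876 in KO with GSH, 484 to 543 in KO and 6605 to 8145 in WT. By limma all 6 mesothelial markers fell in KO against WT, and 2 rose and 4 fell in KO with GSH against KO (median log2 -1.68). Msln, a mesothelial surface protein, averaged 7052 ± 473 in KO with GSH, 944 ± 105 in KO and 5699 ± 612 in WT, while Wt1, a mesothelial transcription factor, averaged 299 ± 72.1 in KO with GSH, 1428 ± 202 in KO and 1762 ± 178 in WT. Of the club markers 2 were tested, both fell in KO against WT, and 1 rose and 1 fell in KO with GSH against KO. Type I markers summed to 13340 to 14721 in KO with GSH, 12130 to 15322 in KO and 16325 to 18659 in WT, and lymphatic endothelial markers (5 of 6 with a probe set) to 1686 to 1823, 1326 to 1456 and 1318 to 1711 in the same groups. In the 9 cell type lists used, 0 markers were below the control level on all arrays.

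**Figure D3:**
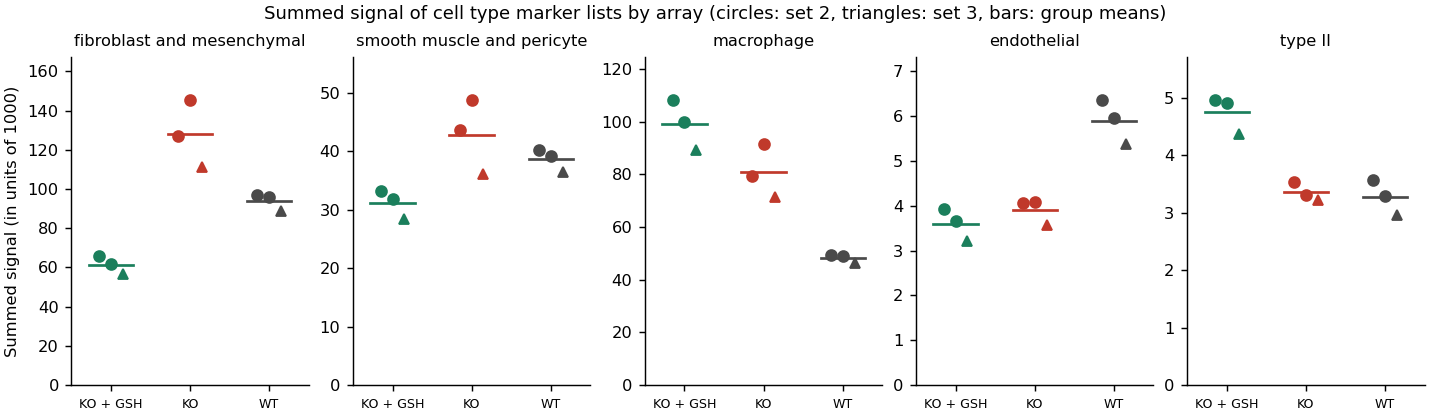
Summed signal of 5 cell type marker lists (vertical axes, in units of 1000, from 0) for 3 arrays each of KO with GSH, KO and WT. Circles are arrays of set 2, triangles arrays of set 3 and bars group means; fibroblast and mesenchymal markers are highest in KO and lowest in KO with GSH, macrophage markers are lowest in WT, and endothelial markers are highest in WT.

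Genes around the adrenomedullin system were then compared, with limma over all probe sets and a Benjamini-Hochberg adjusted p under 0.05 as the call. The 6 lists held 91 genes, of which 6 had no probe set of 1 symbol, 19 were left out by the filter and 66 were tested, with 1 probe set per gene. In KO against WT, 20 rose and 14 fell, beside 16.7% and 15.7% of all 11620 genes. In KO with GSH against KO, 13 rose and 24 fell, beside 19.7% and 19.8%. In KO with GSH against WT, 19 rose and 23 fell, beside 23.5% and 24.5%. The median log2 differences were 0.15, -0.12 and -0.05 for the lists, against 0.01, 0.01 and 0.00 for all genes.

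In the list of calcitonin family ligands and other receptors, not all of that family, 3 of 8 genes were tested. Ackr3, an atypical receptor reported to bind and clear adrenomedullin, read 216.9, 231.0 and 257.1 in KO with GSH, 1555.0, 958.9 and 1253.1 in KO, and 568.1, 648.9 and 619.9 in WT. Its groups did not overlap and stood in the order of Adm. Ackr3 rose 2.01-fold in KO against WT (log2 1.01, limma adjusted p = 0.00055) and fell 5.25-fold in KO with GSH against KO (log2 -2.39, limma adjusted p = 3.5e-07). Adm2, a sister peptide that acts on the same receptors, read 96.0, 143.3 and 19.3 in KO with GSH, 280.6, 199.6 and 213.1 in KO, and 227.8, 255.2 and 171.4 in WT. One array with GSH was below its control level. Adm2 fell in KO with GSH against KO (log2 -1.83, limma adjusted p = 0.0064) and was at log2 0.09 in KO against WT (limma adjusted p = 0.91). The size of the fall rested on the lowest array: without KO_GSH replicate 4 the difference for Adm2 from KO was -1.07, still called.

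Crcp, a protein that couples Calcrl to its G protein, averaged 794 ± 70.9 in KO with GSH, 824 ± 57.5 in KO and 856 ± 152 in WT and was not called. Calcb, a CGRP gene, read about alike in the groups (113, 99.2 and 108 in the same order) and was left out by the filter. Calcr, the calcitonin receptor, was below the control level on all 9 arrays, as was Iapp, the amylin gene, by the brightest of its 4 probe sets, the only Iapp probe set read here. Calca, the other CGRP gene, had no probe set of 1 symbol. The median log2 difference of the 3 tested genes was 0.09 in KO against WT and -1.83 in KO with GSH against KO.

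Of the genes that process or break down such peptides, 9 of 13 were tested. In KO relative to WT, 2 rose and 4 fell (median log2 -0.19), and in KO with GSH against KO 1 rose and 3 fell (median 0.15). Pam, the enzyme that amidates adrenomedullin and makes it active, averaged 1663 ± 574 in KO with GSH, 2128 ± 446 in KO and 1899 ± 319 in WT. It fell in KO with GSH against KO (log2 -0.40, limma adjusted p = 0.012), a call lost with the replicate block (limma adjusted p = 0.10) and without replicate 4 of either KO group. Pam was at log2 0.16 in KO against WT (limma adjusted p = 0.30).

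Pcsk5, a proprotein convertase, averaged 50.7 ± 22.8 in KO with GSH, 329 ± 71.8 in KO and 112 ± 6.70 in WT, and 1 array with GSH was below its control level. It rose in KO against WT (log2 1.53, limma adjusted p = 0.0057) and fell in KO with GSH against KO (log2 -2.80, limma adjusted p = 5.3e-05), the group order of Adm. Cpe, a carboxypeptidase that trims peptide hormones, averaged 3254 ± 527 in KO with GSH, 5232 ± 525 in KO and 7270 ± 427 in WT, and fell in both KO against WT (log2 -0.48) and KO with GSH against KO (log2 -0.69). Cpd, a related carboxypeptidase, rose in KO against WT (log2 0.85, limma adjusted p = 5.6e-06).

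**Figure D4:**
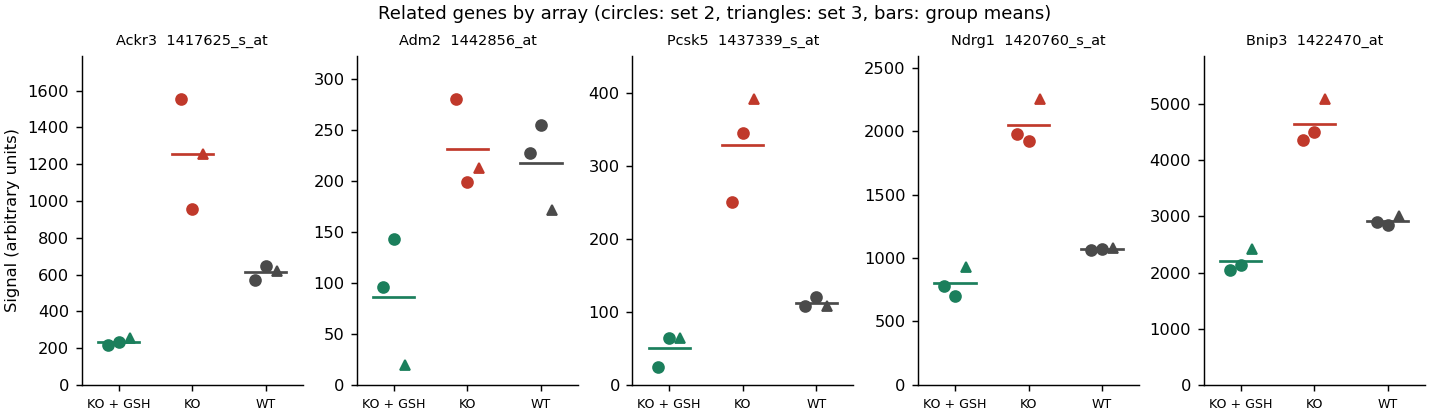
Signal in arbitrary units (vertical axes, from 0) of Ackr3, Adm2, Pcsk5, Ndrg1 and Bnip3 for 3 arrays each of KO with GSH, KO and WT. Circles are arrays of set 2, triangles arrays of set 3 and bars group means; Ackr3, Pcsk5, Ndrg1 and Bnip3 are highest in KO and lowest in KO with GSH, and for Adm2 the KO and WT arrays overlap.

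Of 28 cyclic AMP genes, through which the receptor signals, 23 were tested. Of these, 7 rose and 5 fell in KO against WT (median log2 0.15), and 5 rose and 7 fell in KO with GSH against KO (median -0.15). Adcy7, an adenylyl cyclase, read 5528.0, 5387.0 and 5674.6 in KO with GSH, 3094.7, 3374.6 and 3622.4 in KO, and 1619.5, 1715.7 and 2048.2 in WT, the order of Calcrl with no overlap. It rose by log2 0.91 in KO against WT (limma adjusted p = 2.3e-06) and 0.72 in KO with GSH against KO (limma adjusted p = 8.8e-06). Pde4b, a phosphodiesterase that breaks cyclic AMP down, averaged 2077 ± 151 in KO with GSH, 2916 ± 278 in KO and 1540 ± 26.8 in WT. It rose in KO against WT (log2 0.92) and fell in KO with GSH against KO (log2 -0.49). Pde4d, of the same family, fell in KO with GSH against KO (log2 -1.25, limma adjusted p = 1.1e-05).

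The subunits of protein kinase A, the kinase that cyclic AMP frees, did not move one way. The regulatory subunit Prkar1b fell to 344 ± 33.0 in KO with GSH, against 685 ± 24.1 in KO (limma adjusted p = 2.0e-05). Prkar2a, another regulatory subunit, fell in KO against WT (log2 -0.45) and rose in KO with GSH against KO (log2 0.39). The cyclase Adcy6 fell in KO with GSH against KO (log2 -0.80). By its brightest probe set, the phosphodiesterase Pde7a fell in KO against WT (log2 -0.56). Of the 6 other Pde7a probe sets that passed the filter, 0 had that call.

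Of 9 genes for receptor desensitisation and trafficking, 7 were tested. Of these, 4 rose in KO against WT and the other 3 were not called (median log2 0.44), and 3 rose and 4 fell in KO with GSH against KO (median -0.18). Arrb2, an arrestin that binds active receptors and takes them into the cell, averaged 3130 ± 179 in KO with GSH, 2584 ± 222 in KO and 991 ± 62.2 in WT. It rose in KO against WT (log2 1.38, limma adjusted p = 4.3e-08). Grk3, a kinase that marks active receptors for arrestins, averaged 655 ± 39.1 in KO with GSH, 395 ± 70.8 in KO and 246 ± 15 in WT. It rose in KO against WT (log2 0.67) and in KO with GSH against KO (log2 0.75). Arrb1, the sister arrestin, rose in KO with GSH against KO (log2 0.57, limma adjusted p = 0.0031). Grk5, another receptor kinase, rose in KO against WT (log2 0.71), and Nherf1, a scaffold protein, fell in KO with GSH against KO (log2 -0.36).

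Of 11 other receptors reported to bind RAMPs, 9 were left out by the filter. Casr, the calcium-sensing receptor, averaged 69.5 ± 46.2 in KO with GSH, 175 ± 24.4 in KO and 177 ± 24.6 in WT, and 1 array with GSH was below its control level. It fell in KO with GSH against KO (log2 -1.52, limma adjusted p = 0.0077). In KO against WT it was at log2 -0.02 (limma adjusted p = 0.98). Crhr1, a receptor for the stress hormone CRH, was not called in either comparison (log2 0.14 and 0.11).

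All 22 hypoxia-inducible and HIF pathway genes were tested, a list shown because Adm is a textbook member of that response. KO cells had 6 rise and 5 fall against WT (median log2 0.15), and in KO with GSH against KO 4 rose and 7 fell (median -0.10). Ndrg1, a stress-induced gene, averaged 804 ± 118 in KO with GSH, 2050.1 ± 178 in KO and 1073 ± 9.68 in WT. It rose in KO against WT (log2 0.93, limma adjusted p = 9.0e-06) and fell in KO with GSH against KO (log2 -1.36, limma adjusted p = 2.3e-07), as did its other 4 probe sets by the same calls.

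Bnip3, which marks mitochondria for removal, averaged 2201 ± 200 in KO with GSH, 4642 ± 391 in KO and 2916 ± 88.3 in WT. It rose in KO against WT (log2 0.67) and fell in KO with GSH against KO (log2 -1.08), in the group order of Adm. Some genes of the list had other orders. Vegfa, the vascular growth factor, averaged 1104 ± 43.1 in KO with GSH, 2050.2 ± 341 in KO and 2750 ± 289 in WT, and fell in KO against WT (log2 -0.43, limma adjusted p = 0.0019). Bhlhe40, a repressor of transcription, averaged 6293 ± 195 in KO with GSH, 2755 ± 378 in KO and 4763 ± 287 in WT, the reverse of the order of Adm. It fell in KO against WT (log2 -0.80) and rose in KO with GSH against KO (log2 1.20). Hif1a, the oxygen-regulated subunit of HIF, rose in KO against WT (log2 0.37) and fell in KO with GSH against KO (log2 -0.55), and its group means stood in the order of Adm.

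**Figure D5:**
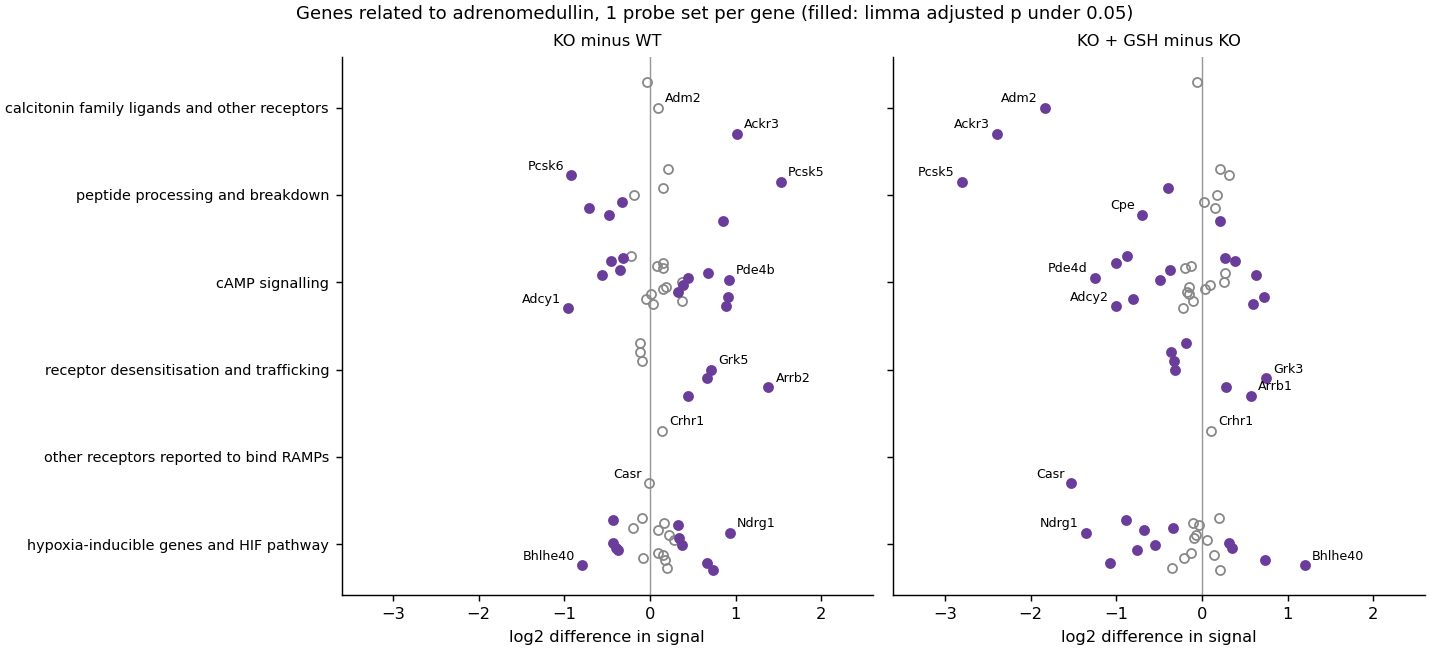
Log2 differences in signal (horizontal axes) of the 66 tested genes in 6 lists, for KO minus WT and KO with GSH minus KO. Each point is 1 gene, filled where the limma adjusted p was under 0.05, and the 2 genes farthest from 0 in each list are named; Ackr3, Adm2 and Pcsk5 lie at -2.80 to -1.83 in KO with GSH minus KO.

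Of the 17 calls among related genes chosen for naming in KO against WT, 13 held under all alternatives run, and of the 19 in KO with GSH against KO, also 13. With only the arrays of set 2, calls were lost for Pcsk5, Pcsk6 and Arrb1 in KO against WT and for Pam, Cpd, Nherf1 and Casr in KO with GSH against KO. With no set in the model, calls were lost for Arrb1 and Hif1a in KO against WT and for Adm2, Pam, Cpd, Arrb2 and Nherf1 in KO with GSH against KO. The count of related genes that fell in KO against WT was 14, and it was 8 without KO replicate 4, 8 without WT replicate 3 and 9 without WT replicate 4.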

How the data were processed

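Per the series' design text, RNA was measured on Affymetrix Mouse 430 2.0 arrays. The authors deposited 1 linear intensity per probe set and array, and the median of the arrays' trimmed means was 500. No source used here names the software or its settings. Per the labels' protocols, cells were isolated with Dispase, with a step of adherence to clear macrophages and fibroblasts.

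Of 45101 probe sets, 64 controls were left out. The 2 values at 0 were set to 0.1 and log2 taken. Probe sets at or above the median mean signal (22519, a geometric mean of 116) were fitted over all 9 arrays with limma 3.58.1 in R 4.3.3, with terms for group and set; eBayes used a trend on signal (residual degrees of freedom 5, prior 6.08). The number of arrays limits the precision. GEO's platform annotation gave 1 symbol to 34945 probe sets, several to 932 and none to 9160. The fit was also run on simulated arrays with independent noise, which cannot show how the calls behave if arrays are technical repeats.

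The members, lists and alternatives were chosen with earlier results of these data known. Named genes were all members, Nfe2l2 and the up to 4 genes of each list with the smallest p per comparison. Calca, Calcb, Adm2, Calcr, Ackr3 and Pam were named whether or not they changed. Also named were the 5 genes nearest to each member. Genes that mark sex or cell types are named as checks. The 1 probe set per gene was that with the highest mean log2 signal. The titles give both KO groups the replicate numbers 2, 3 and 4. The correlations of same-numbered arrays, taken over deviations from their group's mean, were 0.32, 0.29 and 0.67, the last from set 3. Crossed pairs within set 2 gave 0.39 and 0.24, so within set 2 the numbers showed no clear pairing. The main fit used the set and no pairing. The replicate block, with the replicate number in place of the set, was run as an alternative. KO and WT share only 2 numbers (0.42 and -0.49), which were not taken to pair them. Replicate 4 is of set 2 in WT and of set 3 in KO, and replicate 5 occurs only in WT. In comparisons with WT the replicate block therefore mixes set with group.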

Additional observations from a re-analysis of the deposited data

How the results depend on the processing

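The log2 differences of the members moved by less than 1 SD between replicates in 89 of 105 values under other settings and in 129 of 135 that left out 1 array. Many of these values were bound to stay the same, so no conclusion is drawn from the counts. Leaving the set out of the model, fitting only the 6 arrays compared and raising values under 32 to 32 gave each member's main difference. So did the replicate block in KO with GSH against KO, and leaving out an array of the group not compared. By its other probe set Adm gave 1.81, -2.58 and -0.78. Signs turned for Ramp1 by 1447474_at (0.27 in KO against WT, -0.13 in KO with GSH against KO) and by 1431413_at (-0.96 in KO with GSH against KO, -1.37 in KO with GSH against WT). With the replicate block Ramp1 turned to -0.15 in KO with GSH against WT, and it ranged from -0.03 to 0.12 with 1 array left out. Ramp3 in KO against WT turned to -0.11 with the replicate block and -0.21 in set 2 only, and ranged from -0.15 to 0.31 with 1 array left out. The counts of related genes depended on the setting. With no set in the model 13 rose and 7 fell in KO against WT and 8 rose in KO with GSH against KO. With the replicate block 5 fell in KO against WT. The replicate numbers do not pair KO with WT arrays, and the block mixes set with group there. Its values, counts and lost calls in comparisons with WT are therefore given without a conclusion. In set 2 only 6 fell in KO against WT and 15 in KO with GSH against KO. By the fold rule of the design text 13 rose and 3 fell in KO against WT, 5 rose and 15 fell in KO with GSH against KO, and 9 rose and 12 fell in KO with GSH against WT. Leaving out 1 array gave 8 to 14 falls in KO against WT. Of the 17 and 19 calls checked, Arrb1, Pcsk5, Pcsk6 and Hif1a lost theirs under some setting in KO against WT. In KO with GSH against KO, Adm2, Pam, Cpd, Arrb2, Nherf1 and Casr did. Among the checked calls, the replicate block changed only Arrb1 and Pcsk6 in KO against WT and Pam, Cpd and Arrb2 in KO with GSH against KO. Some calls given above were not in this check. They include Vegfa in KO against WT, and Hif1a, Pde4b and Prkar2a in KO with GSH against KO. The cause of these changes was not tested. Signals near the control level limit Calcrl 1459536_at and Ramp1 1431413_at. Some groups of other probe sets also lay not far above it. Calcrl 1418489_a_at read 64.5 and 54.5 on WT replicates 4 and 5, with control levels of 49.2 and 45.3. Ramp2 1418187_at read 112.0 and 85.3 on KO_GSH replicates 2 and 3, with control levels of 82.9 and 60.9.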
